A study of Mus musculus with 4 samples.

Results

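The 10 genes described here, Rtp1, Rtp2, Reep1, Eif2ak3, Atf5, Ddit3, Xbp1, Hspa5, Calr and Hsp90b1, are a named list of receptor trafficking and stress feedback genes, 10 of the 55511 genes in the merged table of unique molecular identifiers (UMIs, counts of single captured transcripts). They were followed from basal stem cells to mature neurons in the mouse main olfactory epithelium, and then across populations of mature olfactory sensory neurons (OSNs) that express the same olfactory receptor (OR). The series holds 4 single-cell libraries, each from a separate male aged 8 weeks of strain C57BL/6 (C57BL/6J in the study's methods), and its labels give no treatment, transgene or second genotype. The epithelia were dissociated with papain and Hoechst-positive, DRAQ7-negative cells were sorted, a gate for live nucleated cells of any type. Every comparison was therefore between cells of the same 4 mice, and the mouse is the replicate.

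ORs fold poorly and tend to be held in the endoplasmic reticulum (ER) when expressed alone, and the membrane proteins RTP1 and RTP2, together with the ER-shaping protein REEP1, help them reach the cell surface. Onset of OR expression engages a branch of the unfolded protein response in OSNs: the ER kinase PERK, encoded by Eif2ak3, phosphorylates a translation initiation factor, which favours translation of the transcription factor ATF5, and this feedback is known for stabilizing the choice of a single OR. Ddit3 encodes CHOP, a transcription factor induced downstream of PERK and ATF4. Xbp1 encodes the transcription factor whose mRNA is spliced by the ER sensor IRE1, and Hspa5 (BiP), Calr (calreticulin) and Hsp90b1 (GRP94) encode abundant chaperones of the ER lumen.

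The chaperone genes are classical targets of the ER stress response element (ERSE), and they were higher together in immature neurons with a called receptor, so the promoter sequences that hold the element are shown here. The element was searched as CCAAT and CCACG with 9 bases of any kind between them, on both strands, in windows from 250 bases before to 50 bases after each RefSeq transcription start (GRCm38.p6). It was present in 39 of 32851 windows, 0.119%. Windows were available for 9 of the 10 genes, none for Rtp1, and the element was found in those of Hspa5, Calr and Hsp90b1. As these are known targets, the matches are no independent result. Each sequence is written 5′ to 3′ on the strand of its gene, with the element in capitals.
Hspa5, chr2:34772025-34772043, forward element: ttcaCCAATCGGAGGCCTCCACGacgg
Calr, chr8:84847075-84847093, reverse element: aacgCGTGGTCGACCCTCATTGGccca
Hsp90b1, chr10:86705638-86705656, forward element: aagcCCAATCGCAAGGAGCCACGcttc
Hsp90b1, chr10:86705533-86705551, reverse element: agtgCGTGGTGAGGCACGATTGGtgag
The elements began at positions -65 in Hspa5, -162 in Calr and -212 and -107 in Hsp90b1, counted from the RefSeq start, and the pair in Hsp90b1 lay in opposite orientations. The element of Hspa5 fell inside the gene's bounds in the GENCODE annotation (chr2:34771970-34777547), while those of Calr (chr8:84841850-84846934, minus strand) and Hsp90b1 (chr10:86690209-86705509, minus strand) lay upstream of theirs. The unfolded protein response element TGACGTGG was present in 0.676% of all windows and the ATF4-CHOP element TGATGNAA in 3.97%, and the windows of the 9 genes held neither. A match describes the letters in the window and not a bound site.

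The libraries held 4746 to 6003 barcodes and 23157467 to 32382702 UMIs. Pairs of libraries shared 4 to 14 barcodes, at most 0.295% of the smaller library. The deposited annotation retained 15859 cells, among them 202 globose basal cells (GBC), 284 immediate neuronal precursors (INP), 866 early and 1006 late immature OSNs (iOSN1 and iOSN2) and 10519 mature OSNs (mOSN). The study assigned cell types from marker genes, so marker levels describe the labels and do not test them. The proliferation gene Mki67 averaged 3.40 UMIs per 10000 in GBC and 0.0904 in INP, the proneural gene Neurod1 9.63 in INP and 0.0344 in iOSN1, the growth cone gene Gap43 32.3 in iOSN1 and 8.75 in iOSN2, and the olfactory marker Omp 72.1 in mOSN and 47.4 in iOSN2. ORs appeared between INP and iOSN1. The share of cells with an OR above the limit used for calling (8.284 UMIs per 10000, set in mature neurons) averaged 3.86% in GBC, 4.96% in INP, 66.8% in iOSN1, 96.1% in iOSN2 and 96.3% in mOSN, against 0.748% to 5.92% in horizontal basal, sustentacular and microvillar cells, which should lack ORs. The GBC and INP shares thus lay within this background. Levels are given as UMIs per 10000 UMIs of a cell type in a mouse, and since 3′ counts are not scaled to length they are compared between cells and not between genes.

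Along the lineage, the trafficking genes were higher on average at each later stage, Atf5 and Ddit3 were highest in immature neurons, and the chaperone genes followed no common path. Stages are clusters made from the same genes, so these levels are a description without a test. Rtp1, at chr16:23429133-23433960 (GRCm38), measured 0.0377, 0, 0.127 and 0.140 UMIs per 10000 in the GBC of mice 1 to 4 and 0.218, 0.382, 0.294 and 0.291 in their INP. It measured 1.31, 1.80, 1.49 and 1.34 in iOSN1, 2.57, 3.63, 3.48 and 2.87 in iOSN2, and 3.50, 4.66, 4.15 and 4.10 in mOSN. The 4 mice of each stage from INP to iOSN2 lay above those of the stage before, while the ranges of iOSN2 and mOSN overlapped, though mOSN was higher within 4 of 4 mice (log2 ratio 0.39 ± 0.11). Its level in non-neuronal types, 0.0294 to 0.372 on average, took in the values of GBC and INP.

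Rtp2, a paralog at chr16:23925548-23932394 on the opposite strand of the same chromosome, took nearly the same course, with less spread between mice from iOSN1 on. It averaged 0.0908 ± 0.0608 (SD, n = 4) in GBC, 0.344 ± 0.0874 in INP, 1.99 ± 0.0232 in iOSN1, 3.42 ± 0.127 in iOSN2 and 4.23 ± 0.0524 in mOSN. At each of its 4 steps, every mouse of the later stage lay above every mouse of the earlier one. Reep1 (chr6:71707561-71810710), known for shaping ER tubules, came later. It averaged 0.0166 ± 0.0131 in GBC and 0.0307 ± 0.0311 in INP, on 4 and 8 UMIs. These stages overlapped, with INP higher in 3 of 4 mice. Reep1 then averaged 0.119 ± 0.0164 in iOSN1, 0.546 ± 0.0620 in iOSN2 and 0.902 ± 0.0439 in mOSN. The step from iOSN1 to iOSN2 was larger for Reep1 than for its partners, at 2.17 ± 0.15 on the log2 scale, against 1.07 ± 0.12 for Rtp1 and 0.78 ± 0.04 for Rtp2. Reep1 was not restricted to neurons, since the first cluster of horizontal basal cells averaged 0.403 ± 0.0992.

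The PERK branch genes Atf5 and Ddit3 were low in GBC and high in iOSN1. Atf5 (chr7:44812256-44816658, minus strand) measured 2.34, 1.41, 1.81 and 1.98 UMIs per 10000 in the GBC of mice 1 to 4 and 16.4, 14.9, 15.2 and 13.7 in their INP. It measured 41.1, 41.3, 42.2 and 39.5 in iOSN1, 32.7, 31.8, 32.4 and 29.7 in iOSN2, and 32.4, 32.4, 31.7 and 31.8 in mOSN. The gene was thus 3.01 ± 0.28 higher on the log2 scale in INP than in GBC, a further 1.45 ± 0.09 higher in iOSN1, and lower again in iOSN2 with a log2 ratio of -0.38 ± 0.03, each step without overlap between the 4 mice. Non-neuronal types averaged 0.969 to 3.56, the highest being the first microvillar cluster, where mouse 2 alone measured 10.1 beside an Rtp1 level of 1.18, so that this cluster of mouse 2 carried other neuronal transcripts too.

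Ddit3 (chr10:127290774-127296288) stayed low one stage longer. It measured 0.481, 0.290, 0.509 and 0.296 in GBC, 0.632, 0.218, 0.501 and 0.564 in INP, and 1.90, 2.19, 1.82 and 1.56 in iOSN1. GBC and INP overlapped, whereas iOSN1 was 2.01 ± 0.79 higher than INP on the log2 scale with no overlap. It averaged 1.79 ± 0.233 in iOSN2, which overlapped with iOSN1 (higher in iOSN2 in 2 of 4 mice), and 1.37 ± 0.107 in mOSN, where all 4 mice lay lower than in iOSN2, and 0.511 to 0.870 in non-neuronal types. Eif2ak3 (chr6:70844515-70905245), which encodes PERK itself, was near the limit of detection: it averaged 0.0388 in GBC, 0.0684 in INP, 0.121 in iOSN1, 0.120 in iOSN2 and 0.113 in mOSN, and its 7 UMIs in GBC and 14 in INP allowed no order of the stages. Counts from the 3′ end of transcripts measure mRNA and carry no information on translation of Atf5 or Ddit3 or on splicing of Xbp1.

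Of the chaperone genes, Hsp90b1 and Hspa5 had a low in INP and were high again in iOSN1, whereas Calr was not. Hsp90b1 was at 8.51, 6.79, 7.57 and 8.33 in GBC, 3.35, 3.60, 3.82 and 4.42 in INP, and 8.56, 8.11, 8.03 and 8.24 in iOSN1. The log2 ratio was -1.04 ± 0.21 at the first step and 1.12 ± 0.19 at the second, so the iOSN1 values overlapped with those of the dividing GBC. Hspa5 took a smaller course in the same order, from 4.54 ± 0.596 in GBC to 3.33 ± 0.225 in INP and 4.86 ± 0.291 in iOSN1, and was below the range of iOSN1 again in iOSN2 at 3.55 ± 0.266. Calr went from 5.63 ± 0.466 in GBC to 4.94 ± 0.654 in INP and 3.98 ± 0.140 in iOSN1. Xbp1 (chr11:5520659-5525893) was low at all stages, with 0.646 ± 0.0484 in iOSN1 and 0.371 ± 0.0223 in mOSN against 4.07 ± 0.207 in sustentacular cells. The second microvillar cluster had the highest averages of the 3 chaperones, 7.06 for Hspa5, 7.75 for Calr and 12.2 for Hsp90b1, so high levels of these genes were found outside the neuronal lineage as well.

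**Figure D1:**
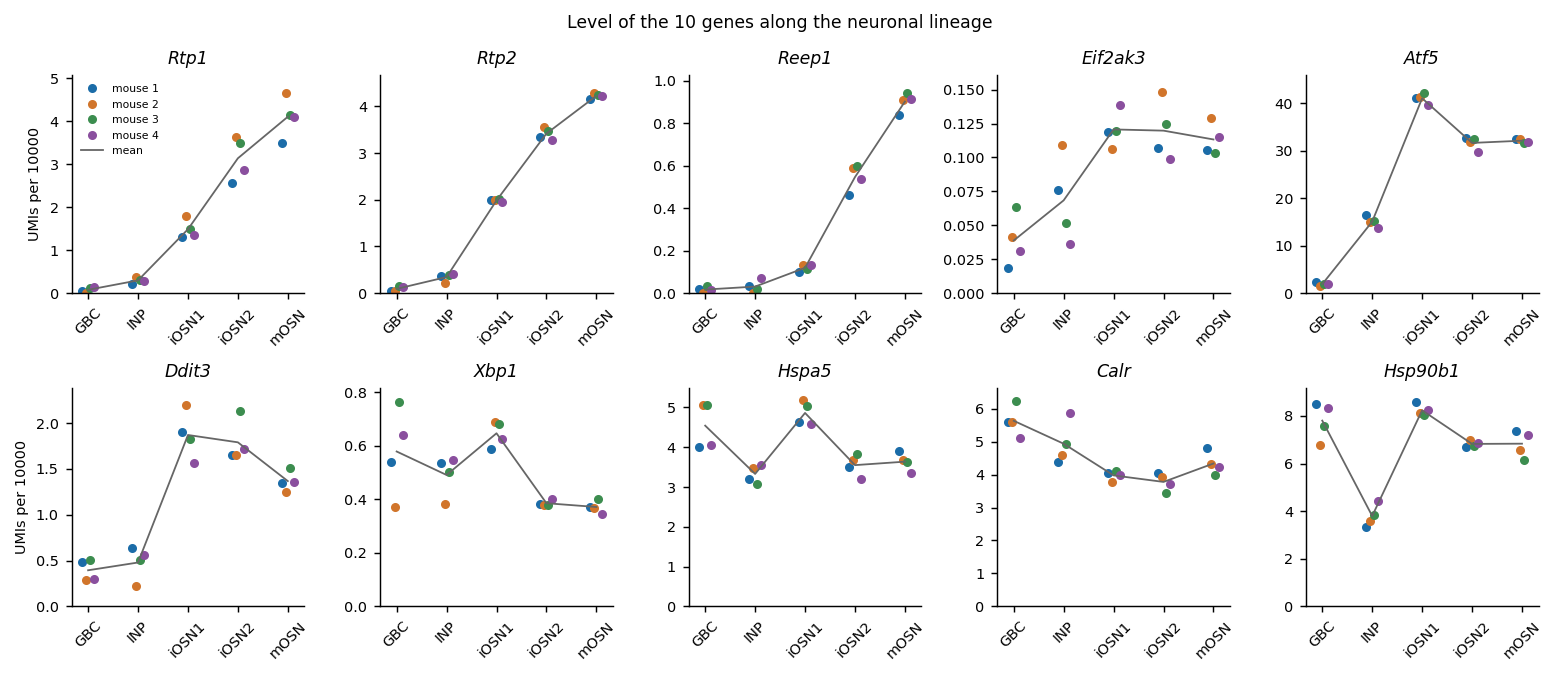
UMIs per 10000 (vertical axes, from 0, one scale per gene) of the 10 genes in 5 stages of the neuronal lineage (horizontal axes), with 1 point per mouse and a line through the means. Rtp1, Rtp2 and Reep1 are higher at each later stage on average, Atf5 is highest in iOSN1, Ddit3 has overlapping values in iOSN1 and iOSN2, and Hsp90b1 has its low of 3.80 in INP.

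Counted over the 9 genes that averaged at least 0.1 UMI per 10000, 8 were higher and 1, Calr, was lower in iOSN1 than in INP with no overlap between the 4 mice, against 26.8% and 17% of all 9242 genes above that level. At the step from GBC to INP, 3 were higher and 2 lower, against 18.9% and 17.1% (35.9% in all). From iOSN1 to iOSN2, 3 were higher and 4 lower, against 20.4% and 31.2% (51.6% in all), and from iOSN2 to mOSN 2 were higher and 1 lower, against 15.5% and 22.4% (37.9% in all). Without mouse 1, 4 were higher at this last step, since Rtp1 and Calr, which were higher in mOSN within 4 of 4 mice, no longer overlapped. Without mouse 2 or mouse 3, 3 were higher, and without mouse 3, 2 were lower. The median log2 difference of the 9 genes from INP to iOSN1 was 1.45, against 0.12 over all genes. Among other genes of the pathways at the same step, 8 of 16 genes of the PERK and ATF4 branch were higher and 1 lower, as were 8 and 2 of 16 ER chaperones and redox enzymes and 4 and 0 of 10 genes of ER-associated degradation, whereas 0 were higher and 4 lower of 6 genes tied to receptor choice feedback. Over the 4 mice, the summed level of 10 dissociation response genes was 17.9 to 28.2 in GBC, 15.2 to 17.9 in INP, 10.2 to 13.2 in iOSN1 and 7.97 to 8.93 in mOSN, and the median log2 difference of the 8 measured above 0.1 from INP to iOSN1 was 0.33. Their part in these levels was not tested. With TMM scaling, which shifted the median of all genes by 0.148 from iOSN1 to iOSN2 and by 0.0957 from iOSN2 to mOSN, Calr overlapped between INP and iOSN1 and Rtp1 was higher in mOSN than in iOSN2.

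Receptor transcripts were used to divide the iOSN1 cells, and 8 of the 10 genes were higher in the group with a called OR. Of 866 iOSN1 cells, 579 had an OR above the limit (106 to 167 per mouse) and 287 had none above it (56 to 94). On average 93.1% of iOSN1 cells held any OR UMI, against 66.8% with an OR above the limit. Many cells without a called OR thus held OR transcripts below the limit. The split used OR counts only, OR genes were left out of the test, and the UMI sums of both groups in the 4 mice were compared with edgeR's quasi-likelihood test with the mouse as a block and Benjamini-Hochberg adjustment over all genes tested. The 8 genes were called higher in cells with a called OR, against 14.7% of 8393 genes called higher and 28.8% called in either direction. Each of the 8 was also higher in 4 of 4 mice without overlap.

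Ddit3 differed most. It measured 2.54, 2.76, 2.29 and 1.88 UMIs per 10000 in the OR-called cells of mice 1 to 4 and 0.530, 0.315, 0.631 and 0.685 in the others, a log2 difference of 2.04 (SE 0.15, adjusted p = 8.2e-14). The cells without a called OR lay within or next to the range of INP, 0.218 to 0.632. Atf5 measured 44.5, 44.0, 47.2 and 42.6 with and 33.8, 32.3, 29.7 and 31.1 without a called OR, a log2 difference of 0.41 (SE 0.05, adjusted p = 1.3e-08). Here the cells without a called OR already lay far above the INP values of 13.7 to 16.4, a comparison between clusters that carries no test.

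Both Rtp genes were higher as well. Rtp1 averaged 1.68 ± 0.211 with and 0.968 ± 0.187 without a called OR, a log2 difference of 0.73 (SE 0.12, adjusted p = 9.1e-06). Rtp2 averaged 2.21 ± 0.0337 and 1.38 ± 0.164, a log2 difference of 0.59 (SE 0.11, adjusted p = 4.1e-05). Both were already above INP in the cells without a called OR. Reep1, the late member of the group, averaged 0.117 ± 0.0181 and 0.125 ± 0.0440 over 76 UMIs in all, and its log2 difference of -0.10 (SE 0.39) left a difference undetectable at this depth. The same held for Eif2ak3, with 78 UMIs and a log2 difference of -0.098 (SE 0.38).

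On the chaperone side, Hsp90b1, Calr, Hspa5 and Xbp1 were called. The ERSE letters as searched were present in the windows of Hsp90b1, Calr and Hspa5. They were absent from those of the called genes Ddit3, Atf5, Rtp2 and Xbp1 and of Reep1 and Eif2ak3, which were not called. The called gene Rtp1 had no window, and the part of the element was not tested. Hsp90b1 measured 10.0, 8.80, 9.10 and 9.04 with and 5.44, 5.79, 5.31 and 6.03 without a called OR, a log2 difference of 0.64 (SE 0.07, adjusted p = 1.0e-09). Calr averaged 4.39 ± 0.258 and 2.91 ± 0.274, a log2 difference of 0.53 (SE 0.08, adjusted p = 4.6e-06). Cells without a called OR lay below the INP values of Calr, 4.38 to 5.86, and the cells with one overlapped with their lower end. Hspa5 averaged 5.32 ± 0.286 and 3.67 ± 0.265, a log2 difference of 0.46 (SE 0.08, adjusted p = 7.4e-06). Xbp1 averaged 0.720 ± 0.0684 and 0.437 ± 0.113, a log2 difference of 0.60 (SE 0.18, adjusted p = 0.00999), and this call was lost without mouse 2 (adjusted p = 0.106) and under DESeq2 (adjusted p = 0.156).

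**Figure D2:**
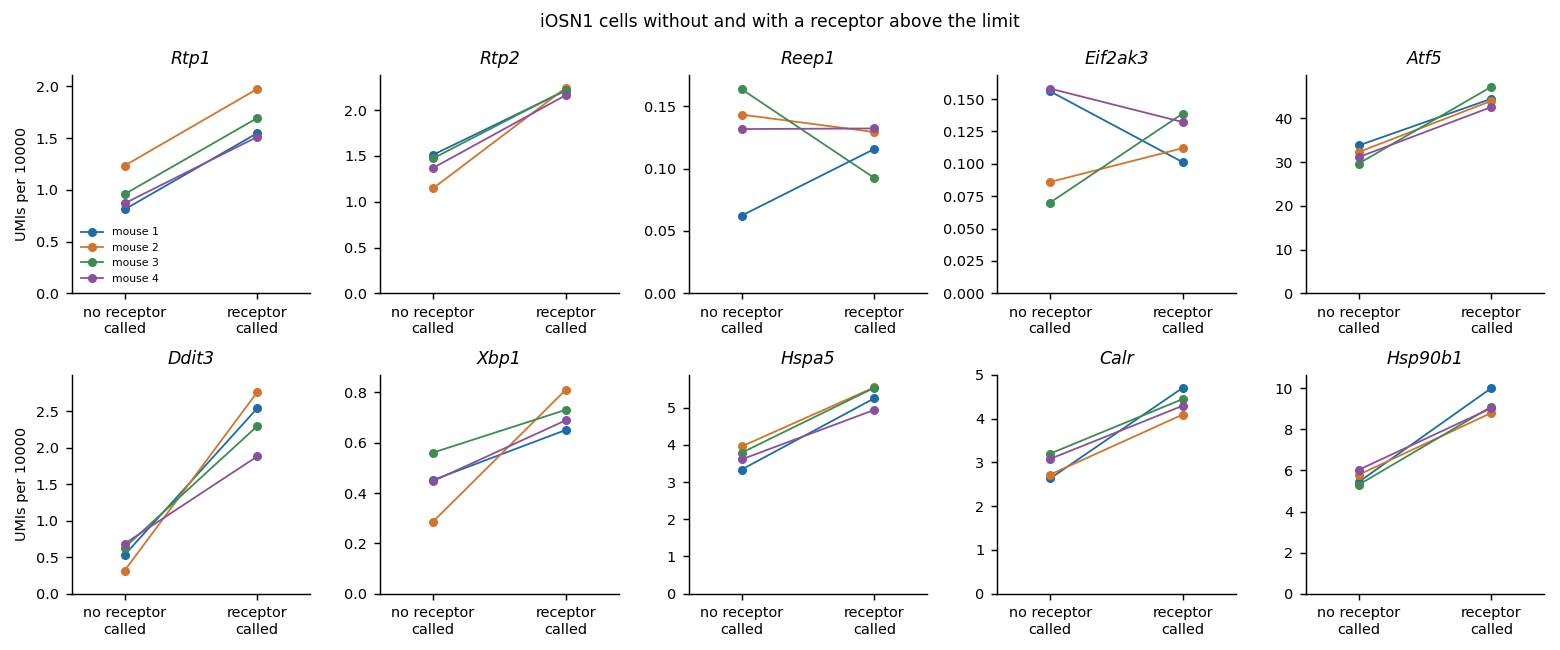
UMIs per 10000 (vertical axes, from 0, one scale per gene) in iOSN1 cells without and with a receptor above the limit (horizontal axes), with a line joining both sums of each mouse. All 4 lines go up for Ddit3, Rtp1, Rtp2, Atf5, Xbp1, Hspa5, Calr and Hsp90b1, and they cross for Reep1 and Eif2ak3.

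The other pathway genes are counted against the 14.7% of all genes called higher, 14.1% called lower and 28.8% called in all. In the PERK and ATF4 branch, 8 of 14 genes tested were higher and 0 lower, with a median log2 difference of 0.71 against -0.01 over all genes tested. They included Ppp1r15a, the phosphatase subunit that ends PERK signalling (2.23 against 0.616 UMIs per 10000, log2 difference 1.68), the pseudokinase Trib3 (0.995 against 0.169, 2.35), the amino acid transporter Slc7a5 (1.02 against 0.285, 1.73) and Atf4 (3.60 against 2.40, 0.50). Among ER chaperones and redox enzymes, 8 of 14 were higher and 0 lower, with Pdia3 at 1.12, the BiP cochaperone Dnajb9 at 1.00, Ppib at 0.63 and Manf at 0.57 on the log2 scale. In ER-associated degradation, 4 of 11 were higher and 1 lower: Herpud1 (4.50 against 1.18, log2 difference 1.85), Erlec1 (0.91) and Sel1l (0.92) were among the higher, and Vcp (-0.27) was the lower one. Of 13 ER export and translocon genes 6 were higher and 0 lower, led by Sec62, Sar1b, Ssr4 and Sec13. The 4 ER stress sensor genes tested had a median log2 difference of 0.37, and 1 of them, Atf6, reached an unadjusted p below 0.05 in the edgeR test but 0 passed adjustment. Of 6 receptor choice genes, 4 transcription regulators were lower, with Lhx2 at -1.25, Ebf1 at -1.03, Emx2 at -1.12 and Ldb1 at -1.06, and Adcy3 (0.35, adjusted p = 0.127) and Kdm1a (-0.25, adjusted p = 0.0795) were not called.

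**Figure D3:**
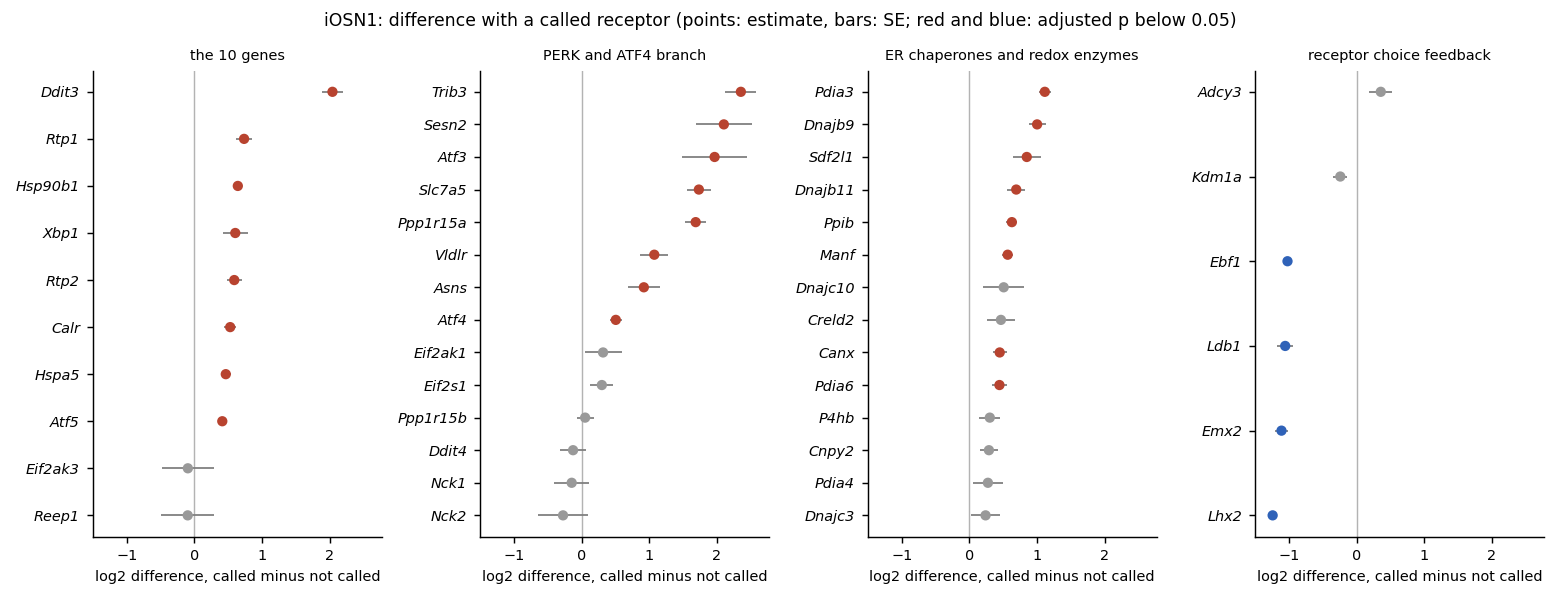
Log2 difference between iOSN1 cells with and without a called receptor (horizontal axes) for the 10 genes and 3 pathway lists (rows), with points for estimates, bars for 1 SE, red and blue for adjusted p below 0.05 and grey for the rest. Trib3 lies farthest to the right at 2.35 and Lhx2 farthest to the left at -1.25.

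The groups differed in more than their ORs. Mature neuron markers summed to 31.2 to 36.4 UMIs per 10000 in OR-called cells and 17.0 to 20.4 in the others, with Omp at 7.18 against 2.00, while the precursor gene Sox11 stood at 15.2 against 25.5. Immature neuron markers summed to 89.3 to 98.0 and 57.8 to 70.2. Blood transcripts stood apart in the OR-called cells of mouse 4, where Hbb-bs measured 13.5 UMIs per 10000 against 0.0506, 0.379 and 0.111 in mice 1 to 3 and 0.0624, 0.143, 0.164 and 0.50 in cells of mice 1 to 4 without a called OR, and both hemoglobin genes tested were called higher. Without mouse 4, 8 members remained called, with log2 differences from 0.43 for Atf5 to 2.24 for Ddit3, beside 2149 of 8583 genes. Median UMIs per cell ran from 5992 to 9960 and from 4933.5 to 7526.5. Dissociation response genes summed to 8.68 to 11.4 in OR-called cells and 14.4 to 16.9 in the others, with 4 genes lower, Jun most, and Fos higher by 0.48 on the log2 scale. The part of maturation in the result was not tested and cannot be told apart from that of the OR, since OR transcripts and maturity go together. Each cell with at least 2500 UMIs was also thinned to that number, and its OR was called anew from the thinned counts. Then 6 of 8 members tested remained called in edgeR's quasi-likelihood test, beside 995 of 4418 genes. Hspa5 (adjusted p = 0.0534) and Xbp1 (adjusted p = 0.0545) did not.

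For most of these genes a similar contrast was smaller in mature neurons. There the OR group held only neurons with 1 OR above the limit, whereas in iOSN1 it held cells with 1 or more. The iOSN1 groups also differed in maturity, so the effects below are differences between groups and not those of the OR alone. A test of the difference between the OR effect in iOSN1 and that in mature neurons, added after the data were seen, called 1595 of 9226 genes, 17.3%, and 7 of the 10 members. For Ddit3 the effect was 2.06 on the log2 scale in iOSN1 and 0.26 in mature neurons, a difference of 1.80 (SE 0.19, adjusted p = 1.18e-10, edgeR's quasi-likelihood test). The differences were 0.57 for Rtp2, 0.57 for Rtp1, 0.51 for Calr, 0.50 for Hsp90b1, 0.31 for Hspa5 and 0.24 for Atf5. That of Hspa5 was lost when any 1 mouse was left out and that of Atf5 without mouse 3 or mouse 4. Xbp1 differed by 0.61 (SE 0.27, adjusted p = 0.118).

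In INP, 17 cells had an OR above the limit, 7 in mouse 1, 1 in mouse 2, 0 in mouse 3 and 9 in mouse 4. Their share, 4.96% on average, lay within the background of 0.748% to 5.92% in cell types that should lack ORs. Of 6 members tested, Rtp2 was called, against 3.2% of 3315 genes called higher and 3.71% in all. It measured 0.899, 1.51 and 2.04 in the OR-called cells of mice 1, 2 and 4, above 0.149 to 0.380 in the other INP cells, a log2 difference of 2.54 (SE 0.46, adjusted p = 1.87e-06). Rtp2 had 27 UMIs in all in the OR-called cells, and the value of mouse 2 rests on 1 cell. Median UMIs per cell were 16504, 6622 and 10423 in the OR-called cells of mice 1, 2 and 4 and 8161, 3214 and 6077 in the others. With cells thinned to 2500 UMIs, 0 of 4 members tested were called. Without mouse 4, 0 members were called by edgeR and 1 had an unadjusted p below 0.05. With no block, 2 were called. The OR-called INP cells also had mature neuron markers summing to 17.6 to 95.1 UMIs per 10000, against 1.34 to 3.80, which are transcripts of later stages. The part of stray transcripts or doublets was not tested.

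Mature neurons expressing a class I OR, the smaller and mostly dorsal family of ORs encoded in 1 cluster on chromosome 7, had lower levels of chaperone genes and Rtp1 than neurons with a class II OR. Of the 10 genes, 4 were called lower in 1075 class I neurons and 0 higher, against 8.98% and 9.7% of 11844 genes tested, 18.7% in all. Hsp90b1 measured 5.96, 5.45, 4.90 and 5.38 UMIs per 10000 in class I neurons and 7.63, 6.78, 6.38 and 7.38 in class II neurons, 2 sets that did not overlap, with a log2 difference of -0.31 (SE 0.03, adjusted p = 1.1e-17, edgeR's quasi-likelihood test with the mouse as a block). Calr averaged 3.59 ± 0.469 and 4.43 ± 0.341, a log2 difference of -0.25 (SE 0.04, adjusted p = 1.5e-08). Rtp1 averaged 3.59 ± 0.540 and 4.19 ± 0.465, a log2 difference of -0.18 (SE 0.04, adjusted p = 0.00016). Hspa5 averaged 3.24 ± 0.201 and 3.72 ± 0.240, a log2 difference of -0.14 (SE 0.04, adjusted p = 0.0043).

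The last 3 genes overlapped between the classes over mice but were lower in class I neurons within each of the 4 mice. With no replicate block, that is without pairing both classes within a mouse, Hsp90b1 was the only member called and 1069 genes were called in all. Hspa5 was not called under DESeq2 (adjusted p = 0.141) or without mouse 3 (adjusted p = 0.108). Rtp2 was lower in 4 of 4 mice, 3.90 ± 0.128 against 4.26 ± 0.0335, and missed the threshold with a log2 difference of -0.07 (SE 0.04, adjusted p = 0.206). The pathway lists are read against the 18.7% of all genes called. Of 16 chaperones and redox enzymes 2 were lower and 0 higher, Dnajb9 with a log2 difference of -0.53 and Sil1 with -1.28, and in ER-associated degradation 1 of 11 was lower, Herpud1 (1.23 against 2.38, log2 difference -0.86), and 1 higher, Erlec1 (0.36). In the PERK and ATF4 branch the VLDL receptor gene Vldlr was higher (1.29) and Trib3 lower (-0.54), of 16 tested. Of 6 receptor choice genes Adcy3 (-0.18) and Ldb1 (-0.44) were lower, of 13 ER export and translocon genes Ssr4 (0.22) and Sec62 (0.09) were higher, and of 7 ER stress sensors 0 were called by edgeR and 1 had an unadjusted p below 0.05.

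Class I neurons lie mostly in the dorsal zone, so they were also set against class II neurons from there, those of 182 populations found mainly in the deposited dorsal OSN clusters. Here 2 members were lower and 0 higher, against 2.97% of 9575 genes called lower, 4.09% called higher and 7.06% in all. Hsp90b1 was still lower, 5.42 ± 0.434 against 6.32 ± 0.669, in 4 of 4 mice, with a log2 difference of -0.17 (SE 0.04, adjusted p = 0.00094). Atf5 measured 32.1, 31.3, 30.4 and 32.5 in class I and 35.4, 34.2, 33.2 and 34.8 in dorsal class II neurons without overlap, a log2 difference of -0.08 (SE 0.02, adjusted p = 0.031). The call of Atf5 was lost without mouse 1, 2 or 3, and 0 members were called under DESeq2, where 2 had an unadjusted p below 0.05, or by edgeR with no block, where 0 did. The log2 difference of Rtp1 was -0.03 (SE 0.05), that of Hspa5 -0.05 (SE 0.05) and that of Calr -0.08 (SE 0.05). Ddit3 did not overlap, 1.31 ± 0.0887 against 1.54 ± 0.0575, but missed the threshold at -0.17 (SE 0.07, adjusted p = 0.135). In the lists, against the same 7.06% of all genes, 3 of 11 genes of ER-associated degradation were called, Herpud1 (0.23) and Erlec1 (0.23) higher and Sel1l (-0.28) lower, so Herpud1 had the opposite sign to that against all class II neurons. Of 6 receptor choice genes Emx2 (0.31) was higher and Ldb1 (-0.47) and Adcy3 (-0.10) lower. In the other lists 2 of 13 genes of the PERK and ATF4 branch, 1 of 15 chaperones and redox enzymes, 1 of 6 ER stress sensors and 0 of 13 ER export and translocon genes were called by edgeR, with 1 of the last at an unadjusted p below 0.05.

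**Figure D4:**
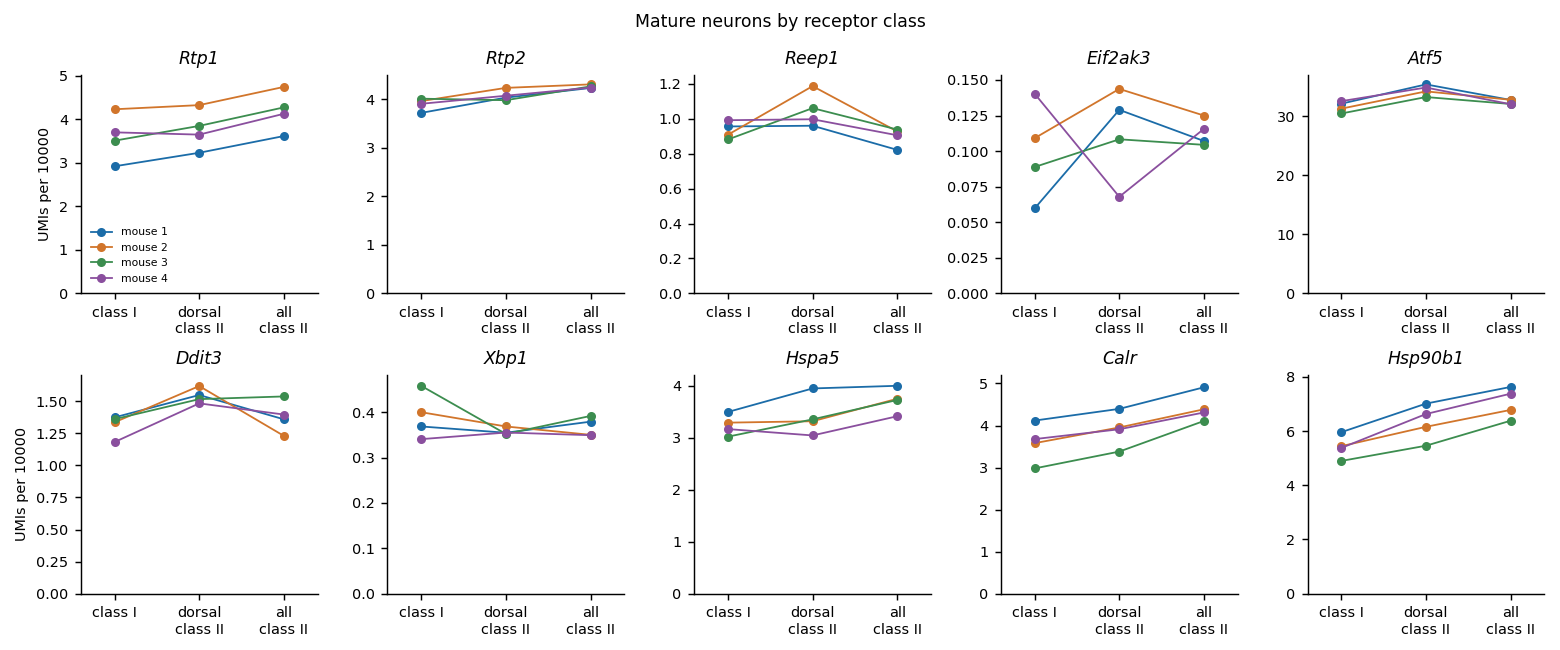
UMIs per 10000 (vertical axes, from 0, one scale per gene) in mature neurons with a class I receptor, with a dorsal class II receptor and with any class II receptor (horizontal axes), with a line per mouse. Hsp90b1 is lowest in class I neurons of all 4 mice, between 4.90 and 5.96, and Atf5 is highest in dorsal class II neurons of all 4 mice.

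The 10 genes listed as a dissociation response, Fos and Jun among them, were also higher in sum in class I neurons. They summed to 11.0 to 12.8 UMIs per 10000, against 7.62 to 8.25 in class II and 8.08 to 8.63 in dorsal class II neurons. Both classes came from the same libraries, and the source of this difference was not tested. Against class II, 7 of 9 of these genes tested were higher and 0 lower, with Fos at 2.79 against 1.03. Mature neuron markers summed to 159 to 162 in class I, 181 to 186 in class II and 169 to 174 in dorsal class II neurons. Immature neuron markers summed to 4.74 to 5.84 in class I, 3.40 to 4.16 in class II and 3.73 to 5.22 in dorsal class II neurons. Of these, Stmn2 was called higher and Gap43 lower in class I neurons in both comparisons. Mitochondrial transcripts made up 0.900% to 1.28% of UMIs in class I, 1.15% to 1.59% in class II and 1.005% to 1.45% in dorsal class II neurons. The part of these differences in the member results was not tested.

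Mature neurons with no OR above the limit differed little from the rest, and Atf5 was the one member that passed the test. The 384 neurons without a called OR include some with OR transcripts below the limit. They measured 27.8, 27.2, 28.7 and 28.3 UMIs of Atf5 per 10000 and the 9791 with a called OR 32.7, 32.6, 31.8 and 32.1. The groups did not overlap, and the log2 difference was -0.21 (SE 0.05, adjusted p = 0.0070), against 0.161% of 11814 genes called lower and 0.406% in all. Rtp1, Ddit3, Hspa5 and Hsp90b1 were lower in 4 of 4 mice, with log2 differences from -0.18 to -0.28, and none passed adjustment (adjusted p = 0.25 to 0.46). With Atf5, 5 of 10 members had an unadjusted p below 0.05 in edgeR's test, beside 783 of 11814 genes. Rtp2 was also lower in 4 of 4 mice, by a log2 difference of -0.05 (adjusted p = 0.982). Eif2ak3 was higher in 4 of 4 mice without overlap, 0.151 ± 0.0155 against 0.112 ± 0.0119, on 29 UMIs in the neurons without a called OR (adjusted p = 0.923). The Atf5 call was lost under DESeq2, with no block, and without mouse 1, 2 or 3. Mature neuron markers summed to 164 to 183 without and 178 to 183 with a called OR, and 1 of 4 was called. In the lists 1 of 16 genes of the PERK and ATF4 branch, 1 of 11 of ER-associated degradation and 1 of 6 receptor choice genes were called. Of 16 chaperones and redox enzymes, 7 ER stress sensors and 13 ER export and translocon genes, 0 were. The part of these differences in the Atf5 result was not tested. Of the 384 neurons, 44 had the receptor-type gene OR5BS1P, which the OR calls did not use, above the limit, compared with 3 of the 9791. Without them the log2 difference of Atf5 was -0.23 (adjusted p = 0.0029) and Rtp1 was called too, at -0.29 (adjusted p = 0.025).

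Among mature neurons with 1 OR each, populations that share an OR differed from each other in 6 of the 10 genes. Of 960 populations, 134 had at least 20 neurons (4143 of 9791 neurons), 15 of them class I, 21 dorsal class II and 98 ventral class II. A quasi-likelihood F test of all population terms (edgeR, with the mouse as a block) over 499 sums of a population in a mouse called 1584 of 5831 genes, 27.2%, and 6 of 9 members tested. The called members were Hsp90b1 (F = 3.06, adjusted p = 1.24e-19), Ddit3 (F = 3.00, adjusted p = 3.67e-19), Rtp1 (F = 2.87, adjusted p = 2.74e-17), Hspa5 (F = 2.38, adjusted p = 1.07e-11), Calr (F = 1.74, adjusted p = 4.69e-05) and Atf5 (F = 1.56, adjusted p = 0.0013). Rtp2 (F = 1.21, adjusted p = 0.182), Xbp1 (adjusted p = 0.352) and Reep1 (adjusted p = 0.411) did not pass, and Eif2ak3 had too few UMIs to be tested. Over the 42 populations that held 5 or more neurons in every mouse, Rtp2 (adjusted p = 0.00673) and Reep1 (adjusted p = 0.044) passed too. The call of Atf5 was lost without mouse 1, 2 or 3 and with sums of a single neuron included.

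Among the 6 called members, the spread between populations was widest for Ddit3 and narrowest for Atf5. The level at the 90th percentile of populations was 3.83 times that at the 10th for Ddit3, 1.92 times for Hspa5, 1.90 for Rtp1, 1.76 for Hsp90b1, 1.62 for Calr and 1.31 for Atf5, and these ratios include counting error. Of the members not called, the ratio was 1.53 for Rtp2, and 4.51 for Xbp1 and 2.30 for Reep1, which had few UMIs per population. Between mice 1 and 2 and mice 3 and 4, the levels of 133 populations had a Spearman rho of 0.50 for Hsp90b1, 0.43 for Ddit3, 0.39 for Rtp1, 0.38 for Hspa5, 0.35 for Atf5, 0.16 for Calr, 0.09 for Rtp2, -0.04 for Reep1 and -0.06 for Xbp1. These describe how far an order of populations found in one pair of mice was seen in the other, and for Calr, Rtp2, Reep1 and Xbp1 little of it was.

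**Figure D5:**
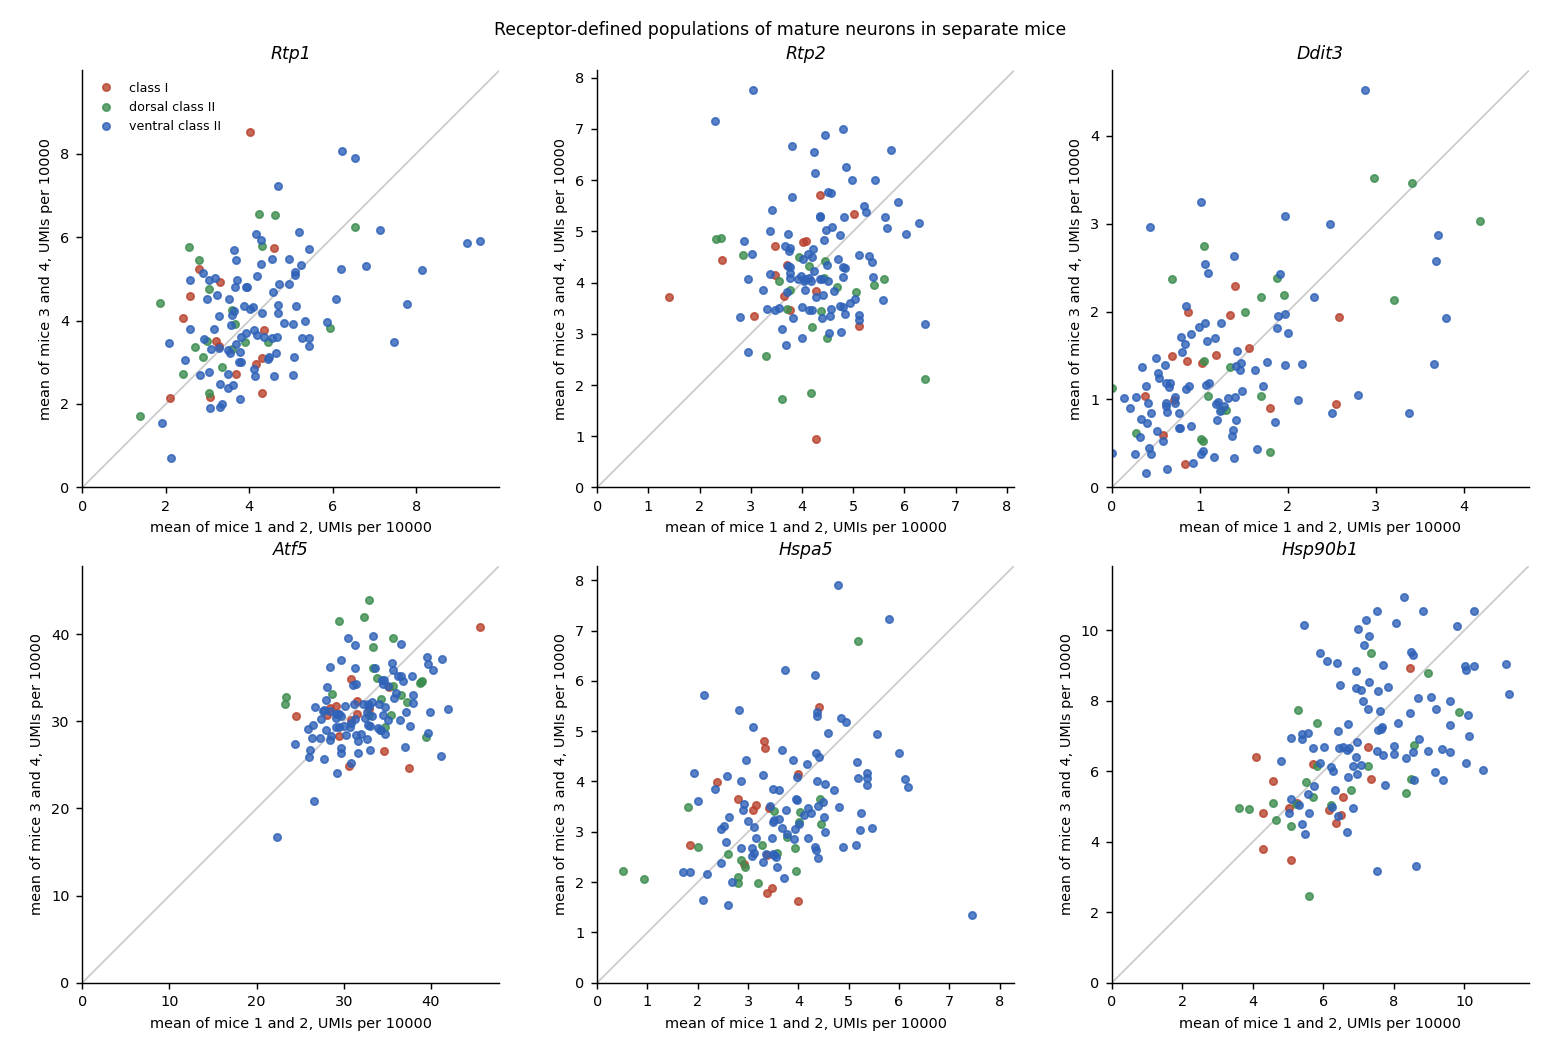
Mean level of 6 genes in receptor-defined populations of mature neurons in mice 1 and 2 (horizontal axes) and in mice 3 and 4 (vertical axes), in UMIs per 10000, with 1 point per population, a colour per class and zone, and the line of equal levels. The points of Ddit3, Rtp1 and Hsp90b1 spread along the line, and those of Rtp2 form a round cloud (Spearman rho 0.09).

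The populations at the ends of each order held 20 to 79 neurons. For Rtp1, Olfr330 neurons measured 8.25, 10.2 and 5.85 UMIs per 10000 in mice 1, 2 and 4, Olfr31 neurons 5.90, 13.1, 5.57 and 6.24 in mice 1 to 4, and Olfr868 neurons 6.23, 8.10 and 8.01 in mice 1, 3 and 4. The lowest were Olfr1025-ps1 (1.37, 1.97 and 1.43 in mice 1, 3 and 4), Olfr1018 (2.11, 2.15 and 0.696 in mice 1, 2 and 4) and Olfr129 (1.93, 1.87 and 1.54 in mice 1, 2 and 3). The highest and lowest 3 thus did not overlap in any mouse, though ends of an order picked from 134 populations are apart by selection and were not tested.

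For Ddit3, the highest were Olfr1252 (2.62, 3.12, 7.32 and 1.71 in mice 1 to 4), Olfr826 (2.07, 4.76, 4.17 and 2.76) and Olfr77 (4.18, 3.17 and 2.90 in mice 1, 3 and 4). The lowest were Olfr1229 (0, 0 and 0.395 in mice 1, 2 and 4), Olfr775 (0.517, 0.259, 0 and 0.335) and Olfr732 (0.266, 0.433 and 0.332 in mice 2 to 4). For Atf5, the ends lay at Olfr609, a class I population (43.1, 48.1, 41.4 and 40.3), Olfr1195 (39.2 ± 6.35) and Olfr1349 (38.8 ± 1.75), and at Olfr731 (26.2, 18.4, 15.2 and 18.3), Olfr720 (23.7 ± 3.73) and Olfr15 (25.9 ± 2.83).

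For Hsp90b1, the highest were Olfr1226, with 79 neurons (11.2, 9.31, 11.3 and 9.74), Olfr1336 (12.8, 9.56, 8.95 and 9.16) and Olfr1507 (9.33, 10.3, 9.41 and 10.9), all ventral. The lowest were Olfr969 (5.11, 6.06, 0.734 and 4.17), Olfr566 (4.27, 4.30 and 3.78 in mice 1, 2 and 4) and Olfr689 (5.22, 4.94, 2.58 and 4.41), all dorsal and the latter pair class I. The zone of each came from the deposited clusters. Hspa5 was highest in Olfr124 (6.51 ± 3.06), Olfr1326-ps1 (6.34 ± 2.23) and Olfr976 (5.98 ± 2.92) and lowest in Olfr810 (1.50 ± 0.713), Olfr884 (1.65 ± 1.03) and Olfr1349 (1.87 ± 0.308). Calr was highest in Olfr1494 (6.31 ± 2.95), Olfr31 (6.00 ± 1.93) and Olfr1090 (5.99 ± 0.882) and lowest in Olfr609 (2.46 ± 1.51), Olfr553 (2.53 ± 0.677) and Olfr884 (2.56 ± 1.27). Olfr1349 was among the 3 highest for Atf5 and the 3 lowest for Hspa5, Olfr609 among the highest for Atf5 and the lowest for Calr, and Olfr31 among the highest for Rtp1 and Calr.

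By class and zone, the medians of Hsp90b1 were 5.54 in 15 class I, 5.98 in 21 dorsal class II and 7.39 in 98 ventral class II populations, and those of Calr 3.69, 3.33 and 4.58. Those of Rtp1 were 3.56, 3.80 and 4.11, and those of Atf5 31.2, 34.8 and 31.6. Within the ventral class II group alone, Hsp90b1 still ran from 4.83 to 10.4, Rtp1 from 1.65 to 8.09 and Ddit3 from 0.132 to 3.70. Across the deposited OSN clusters, which were made from all genes but ORs and are a description, Rtp1 ran from 2.41 ± 0.195 in the dorsal Dlg2+ cluster to 5.36 ± 0.705 in the ventral Cd55+ cluster, Ddit3 from 0.902 ± 0.267 in ventral Dlg2+ to 1.89 ± 0.171 in dorsal Calb2+, and Hsp90b1 from 5.08 ± 0.478 in dorsal Dlg2+ to 9.14 ± 0.723 in ventral Calb2+.

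The members kept partly common orders over the 134 populations, which share mice, libraries and depth, so correlations are given as descriptions. Spearman's rho was 0.47 between Calr and Hsp90b1, 0.47 between Hspa5 and Calr, 0.30 between Hspa5 and Hsp90b1, 0.36 between Atf5 and Ddit3, 0.35 between Rtp1 and Ddit3 and 0.26 between Rtp1 and Rtp2. With Calr from mice 1 and 2 and Hsp90b1 from mice 3 and 4, it was 0.36. In the 24 populations with at least 40 neurons it was 0.36 for Calr and Hsp90b1 and 0.49 for Rtp1 and Ddit3, but 0.14 for Hspa5 and Calr and 0.04 for Atf5 and Ddit3. The share of dorsal neurons in a population had a rho of -0.49 with Calr and -0.37 with Hsp90b1.

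The genes whose order over the populations was most like that of a member were named by rank alone. They were Sgpl1 (rho 0.55), Mia3 (0.49) and Cd47 (0.48) for Rtp1, Rnf185 (0.56), Efna3 (0.56) and Erlin1 (0.53) for Ddit3, Tom1 (0.47), Zfand2a (0.42) and Erlin1 (0.42) for Atf5, Rtn1 (0.63), Gramd1c (0.59) and Sytl1 (0.58) for Hsp90b1, Ppp1r14b (0.47), Calr (0.47) and Fkbp2 (0.46) for Hspa5, and Atpif1 (0.54), Atp5e (0.51) and Prdx1 (0.48) for Calr. Erlin1, whose product takes part in ER-associated degradation, was in the top 3 for both Atf5 and Ddit3. For Rtp2, Reep1 and Xbp1 the first-ranked genes, Pcca, Srrm2 and Bckdha, reached 0.42, 0.33 and 0.38. Over the 20 sums of a stage in a mouse, the first-ranked genes had a rho of 0.99 for Rtp1 (Impdh1), 0.99 for Rtp2 (Pde4a), 0.98 for Reep1 (Scn3b), 0.95 for Atf5 (Arl13b), 0.95 for Ddit3 (Ccm2), 0.91 for Xbp1 (Maoa), 0.85 for Hspa5 (Surf4), 0.90 for Calr (Timm21) and 0.93 for Hsp90b1 (Commd1).

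The other pathway genes are counted against the 27.2% of all genes that were called between populations. In the PERK and ATF4 branch 3 of 6 tested were called, Ppp1r15a (F = 2.66), Ppp1r15b (F = 2.32) and Slc7a5 (F = 1.81). In ER-associated degradation 2 of 8 were called, Herpud1 (F = 6.63) and Sel1l (F = 1.46), as were 1 of 14 chaperones and redox enzymes, Dnajb9 (F = 5.83), 1 of 4 ER stress sensors, Creb3l1 (F = 1.73), 2 of 13 ER export and translocon genes, Ssr4 (F = 1.53) and Sec61a1 (F = 1.40), and 4 of 6 receptor choice genes, led by Adcy3 (F = 6.34). Of the dissociation response genes 5 of 6 tested were called, Fos with F = 5.37, and all 4 mature neuron markers, the immature neuron marker Stmn2 (F = 3.56) and the hemoglobin gene Hbb-bs (F = 3.38) were called, so these also varied between populations, and their part in the member results was not tested.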

How the data were processed

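Single-cell 3′ libraries of 4 mice were analysed. The authors deposited raw UMI counts per gene and cell, made with Cell Ranger 6.0.1 on GRCm38 per the labels, as 1 matrix per library and as a merged table of 21809 cells, 15859 of them with a retained cell type, the OSN clusters and the OR identities. Counts were neither normalized nor pooled over mice. The 10 genes and the pathway lists were chosen with earlier results of these data known. Genes named outside the 10 were those with the smallest adjusted p in a list, the 3 highest and 3 lowest populations, and the 3 genes most alike by rank.

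An OR was called above 8.284 UMIs per 10000. This limit was the median of the highest OR minus 3 scaled median absolute deviations in mature neurons, computed on log-transformed levels and converted back. With it, 10518 of 10519 mature neurons got the same call as deposited. Neurons with more than 1 OR above the limit entered no population, and no doublet caller was run. UMIs were summed per mouse and group, and OR genes were left out of all tests. Groups were compared in edgeR (version 4.0.16, under R 4.3.3): genes passing filterByExpr were scaled by TMM and tested by quasi-likelihood, and a gene was called at a Benjamini-Hochberg adjusted p below 0.05 over all genes tested. The population test used sums of at least 3 neurons and genes with a mean of at least 1 UMI per sum. Stage levels are sums per 10000, and log2 ratios between stages added 0.5 UMI to each sum. Tests were also run on simulated counts with a fixed dispersion. For comparisons of groups these held no differences in gene levels between mice, so they did not represent the pairing of the real sums. DESeq2 1.42.0, limma-voom (limma 3.58.1), RLE scaling, other filters, thinned cells and leaving out each mouse were tried as alternatives.

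The mouse was the block because both groups of a comparison came from the same animal. Deviations of the pairs from their group means correlated at 0.215 to 0.509 over genes for receptor class, 0.132 to 0.472 for dorsal class II, 0.149 to 0.350 for neurons without a called OR, 0.0118 to 0.147 for iOSN1 and -0.0036 to 0.0141 for INP. Depth was 23157467 to 32382702 UMIs per library, and with 4 mice the precision is that of 4 replicates. Fewer cells of a state and less RNA per cell cannot be told apart in summed counts. Ddit3 has a second, overlapping gene ID in the annotation (GENCODE M21), which held 0 UMIs and was left out. Gene positions are from that annotation, and promoter windows from RefSeq.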

Additional observations from a re-analysis of the deposited data

Results flagged for a closer look

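Among 120 groups of 4 mice, 1 had a mouse far from the other three, while chance alone flags about 1 in 20 groups. Ddit3 in iOSN2 measured 2.14 UMIs per 10000 in mouse 3 and 1.65, 1.65 and 1.72 in the others.

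The effect of a called receptor here means the log2 difference between cells with and without one, whatever its source. In iOSN1 these cells also differed in mature neuron markers (31.2 to 36.4 against 17.0 to 20.4 UMIs per 10000). In mature neurons the markers summed to 178 to 183 and 164 to 183, and the part of maturity was not tested. The effect differed between iOSN1 and mature neurons for 7 of the 10 genes, against 17.3% of all 9226 genes. The difference was tested by quasi-likelihood in edgeR, with Benjamini-Hochberg adjustment. On the log2 scale the difference was 1.80 for Ddit3, 0.57 for Rtp1, 0.57 for Rtp2, 0.51 for Calr, 0.50 for Hsp90b1, 0.31 for Hspa5 and 0.24 for Atf5. In each case the effect was larger in iOSN1, and the adjusted p ran from 1.18e-10 for Ddit3 to 0.025 for Hspa5. Without any 1 mouse Hspa5 was not called (adjusted p = 0.0761 to 0.157), and Atf5 was not called without mouse 3 (adjusted p = 0.150) or mouse 4 (adjusted p = 0.167).

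The gene OR5BS1P, outside the receptor calls, was above the receptor limit in 44 of 384 mature neurons without a called receptor, compared with 3 of 9791 neurons with one.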

How the results depend on the processing

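No called difference of the 10 genes changed its direction under the alternatives run. DESeq2 called fewer genes, with 1022 for class I against class II, 163 (0 members) against dorsal class II, 1160 for iOSN1 and 69 for INP. It called 11 (0 members) for mature neurons without a called receptor, named neurons without a receptor below. With no replicate block, so without pairing the groups within a mouse, 1069 genes and 1 member were called for class I against class II, 195 and 0 against dorsal class II, 188 and 2 for INP, and 8 and 0 for neurons without a receptor, and the block changed no call of a member in iOSN1 or between populations. Cells thinned to 2500 UMIs left 995 genes called in iOSN1, 27 (0 members) in INP and 31 for neurons without a receptor, with fewer genes tested and fewer UMIs, and with cells regrouped because the OR was called anew after thinning. Leaving out each mouse gave 498 to 587 genes and 1 to 2 members called for dorsal class II. It gave 54 to 193 genes and 0 to 2 members for INP. For neurons without a receptor it gave 32 to 45 genes and 0 to 1 member. Along the stages from iOSN2 to mOSN it gave 2 to 4 members higher and 1 to 2 lower. Without the 5% of cells with the most UMIs 1 member remained called for dorsal class II, among 607 of 9480 genes. Without the OR5BS1P neurons 2 members were called for neurons without a receptor, among 59 of 11867 genes. With TMM scaling 0 members were lower from INP to iOSN1. The cause of these changes was not tested beyond the construction of each alternative. In the population test, 5 to 8 members were called under all alternatives. The 8 were called in the larger populations, beside 1407 of 6767 genes. Without a mouse, 5 to 6 members and 1101 to 1205 genes were called. Rtp2 was called in this F test (edgeR) at a lower count minimum (adjusted p = 0.0396) and without mouse 2 (adjusted p = 0.0347) as well as in the larger populations. Depth limits Eif2ak3 and Reep1 in immature neurons and Xbp1 in single populations.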
